A study of Mus musculus with 6 samples.

Results

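The cell cycle and proliferation genes described here are 35 genes that dividing cells use to copy their DNA and to separate the copies. They were listed by name, with earlier results of these data known. Each was measured by the brightest of the transcript clusters (probe groups of the array) that name that gene and no other. Of the 35 genes, 34 had such a cluster, out of 19938 genes named alone on the arrays, and Ccnb1 was not analysed here. Of these, 11 serve the start of S phase and DNA synthesis (S-phase genes), and 23 of the 24 others serve the passage through G2 and mitosis (mitotic genes). Ccna2, which is used in both, was counted with the mitotic genes.

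Male C57BL6 mice, aged 7 to 8 weeks when bought, received 1 intraperitoneal injection of lipopolysaccharide (LPS) from Escherichia coli serotype 055:B5 at 4 mg/kg, or of phosphate-buffered saline (PBS) as the vehicle. Whole brain was taken 48 h later, and each of the 3 LPS and 3 PBS mice gave 1 Affymetrix array. The labels give no other allele or agent in either group, and LPS was given to the whole animal rather than to the brain. Because whole brain holds many cell types, fewer cells of a type and less RNA per cell cannot be told apart in these data.

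The cell cycle runs from G1 through S phase and G2 to mitosis, and each step is driven by a cyclin bound to a cyclin-dependent kinase. Genes of the first steps are switched on by E2F transcription factors when the retinoblastoma family releases them, whereas genes of G2 and mitosis are switched on later by B-Myb and FoxM1 through CHR elements in their promoters. In adult brain most neurons have left the cycle, and division is known mainly from neural stem cells and their progeny, oligodendrocyte progenitors and, when stimulated, microglia and endothelial cells.

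Values are log2 expression, and a gene was called where the adjusted p of limma, corrected by the Benjamini-Hochberg method over all 35556 clusters, was under 0.05. As a mark of background, a value was set against the 95th percentile of 1207 clusters of olfactory and vomeronasal receptor genes, which brain hardly transcribes, on the same array. This percentile lay between 6.45 and 6.64. Probes differ in brightness, so the mark is approximate for any single gene. Markers of the labelled tissue were all above it on every array (8 neuron, 7 astrocyte and 6 oligodendrocyte genes), and none of them was called by limma, although at an unadjusted p under 0.05 Gfap, of astrocytes, was higher and the myelin genes Mog and Mobp were lower. On principal component 1, which held 54.5% of the variance, LPS replicates 1 and 2 scored 32.9 and 48.3 and the remaining arrays -25.2 to -15.2. Calls of cell cycle genes that change without these 2 arrays are given with both values, and those of endothelial markers as a count.

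Promoter sequences of 5 genes are shown first, because the genes of the 2 phases differ in the elements they carry. The genes are those with an unadjusted limma p under 0.01 and at least 1 motif in the window, which runs from 250 bases before to 50 bases from the annotated start (RefSeq, GRCm38.p6) and is written 5′ to 3′ on the strand of the gene. Capitals mark 3 motifs searched on both strands. The first is E2F, searched as the word TTCCCGC, as the variant TTCGCGC and as the longer word TTTGGCGC. The second is CHR, searched as TTTGAA and with a central CG as TTCGAA. The third is the CCAAT box. The windows are chr7:135716330-135716629 on the minus strand for Mki67, chr7:122159185-122159484 on the plus strand for Plk1, chr10:69352863-69353162 on the minus strand for Cdk1, chr19:37376132-37376431 on the plus strand for Kif11 and chr8:75109259-75109558 on the plus strand for Mcm5.
Mki67: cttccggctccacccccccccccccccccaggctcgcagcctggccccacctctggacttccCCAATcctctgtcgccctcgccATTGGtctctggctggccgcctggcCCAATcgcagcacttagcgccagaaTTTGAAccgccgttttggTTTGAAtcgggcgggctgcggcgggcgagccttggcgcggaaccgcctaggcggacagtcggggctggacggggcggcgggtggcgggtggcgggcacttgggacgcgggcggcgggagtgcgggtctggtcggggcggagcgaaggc
Plk1: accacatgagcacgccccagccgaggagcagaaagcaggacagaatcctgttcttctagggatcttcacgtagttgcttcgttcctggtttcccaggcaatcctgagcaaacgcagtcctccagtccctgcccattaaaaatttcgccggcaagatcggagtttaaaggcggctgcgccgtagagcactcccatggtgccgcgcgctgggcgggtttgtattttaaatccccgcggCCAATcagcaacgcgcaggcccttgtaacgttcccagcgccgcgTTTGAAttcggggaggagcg
Cdk1: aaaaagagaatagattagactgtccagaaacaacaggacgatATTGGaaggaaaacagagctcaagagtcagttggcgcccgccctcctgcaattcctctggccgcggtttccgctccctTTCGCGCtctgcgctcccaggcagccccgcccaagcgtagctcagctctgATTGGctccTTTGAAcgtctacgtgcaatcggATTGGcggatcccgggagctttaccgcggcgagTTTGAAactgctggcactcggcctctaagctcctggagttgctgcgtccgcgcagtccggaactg
Kif11: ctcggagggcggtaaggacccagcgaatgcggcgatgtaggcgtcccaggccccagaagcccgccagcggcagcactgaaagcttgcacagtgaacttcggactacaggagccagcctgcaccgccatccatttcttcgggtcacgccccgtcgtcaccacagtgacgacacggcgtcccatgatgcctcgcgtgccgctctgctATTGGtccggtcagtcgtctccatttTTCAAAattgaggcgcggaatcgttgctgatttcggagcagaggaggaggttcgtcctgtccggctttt
Mcm5: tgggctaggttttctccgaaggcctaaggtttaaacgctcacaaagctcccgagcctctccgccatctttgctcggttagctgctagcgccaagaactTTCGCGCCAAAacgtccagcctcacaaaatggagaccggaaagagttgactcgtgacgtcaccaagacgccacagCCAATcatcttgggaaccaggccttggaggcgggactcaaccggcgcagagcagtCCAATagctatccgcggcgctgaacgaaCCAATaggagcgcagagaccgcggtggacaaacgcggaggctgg

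Mki67 held a pair of CHR words at -116 and -98 bases from the start, downstream of 3 CCAAT words. Plk1 held 1 CCAAT word at -14 and 1 CHR word at 30, and Kif11 held 1 CCAAT word at -45 and 1 CHR word at -19. In Cdk1, CHR words at -71 and -15 stood beside 3 CCAAT words and an E2F word at -130. Mcm5 had no CHR word. Its E2F words, at -152 and -149 and read from opposite strands, overlap each other. In these 5 windows no word of one motif overlapped a word of another.

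Over all members, E2F and CHR words differed in share by phase. Windows were found for 30 members (33 windows, 1 of them of Ccnb1), and for Mcm4, Ccne2, Ccna2, Aurkb and Tpx2 none was used. E2F words lay in 5 of 10 S-phase windows (50%) and in 1 of 23 mitotic windows (4.35%), that of Cdk1, against 6.43% of all 32851 promoter windows. The S-phase windows with E2F words were all of helicase genes, Mcm3, Mcm5, Mcm6 and Mcm7 (2 windows). Mcm2, Pcna, Rrm2, Tyms and Ccne1 had none. CHR words lay in 2 of 10 S-phase windows (20.0%) and 18 of 23 mitotic windows (78.3%), against 19.2% of all windows. The CCAAT word was frequent in both, with 8 of 10 (80.0%) and 20 of 23 windows (87.0%), against 37.4% of all. A match is a description of letters and not a binding site. Of the members that were higher after LPS at an unadjusted p under 0.05, 6 of 10 windows held CHR (60.0%), and of the other measured members 14 of 22 did (63.6%). Nusap1, one of the former, held none of the 3 motifs.

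**Figure D1:**
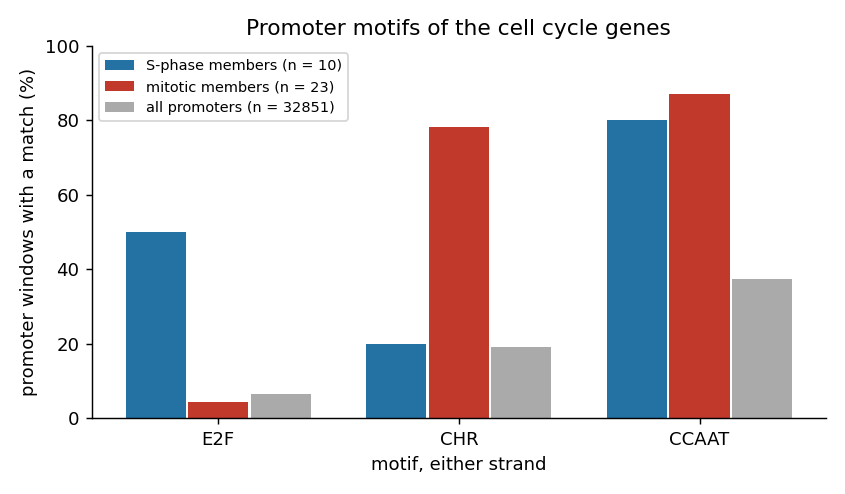
Share of promoter windows (%, vertical axis) that hold a match to E2F, CHR or CCAAT words on either strand, for S-phase members (10 windows), mitotic members (23 windows) and all promoters (32851 windows). E2F was found in 50% of S-phase windows and CHR in 78.3% of mitotic windows.

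After LPS, 1 of the 34 genes was called higher, Mki67, and none was called lower. Among all clusters, 0.652% were called higher and 0.0619% lower. At an unadjusted limma p under 0.05, 12 of the 34 genes were higher (35.3%) and Ccne1 and Ccne2 were lower, against 7.69% and 6.58% of all clusters in the same directions. Because the members were chosen with earlier results known, these shares describe the list and do not test it. All LPS arrays lay above all PBS arrays for 14 genes (41.2%) and below them for 2, against 9.73% and 10.3% of all clusters. The median difference of the 34 genes was 0.21 on the log2 scale, 26 being above 0, beside -0.00 over all clusters.

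Mitotic genes made up most of these. Of the 23 mitotic genes, 10 were higher at an unadjusted p under 0.05 (43.5%) and none was lower, with a median difference of 0.27. Of the 11 S-phase genes, 2 were higher, 2 were lower and the median was 0.07. Of 47 other mitotic genes, described below, 8.51% were higher at that threshold. When each array was centred on its own median, the mitotic median fell to 0.18 with 6 genes higher at that threshold. The S-phase median fell to -0.02 with 1 higher and 2 lower. The same centring moved the median of all clusters from -0.00 to -0.09, with 1718 of 35556 clusters higher and 4147 lower. The split depends little on where Ccna2 is counted. With it among the S-phase genes the medians were 0.26 for mitotic and 0.09 for S-phase genes.

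**Figure D2:**
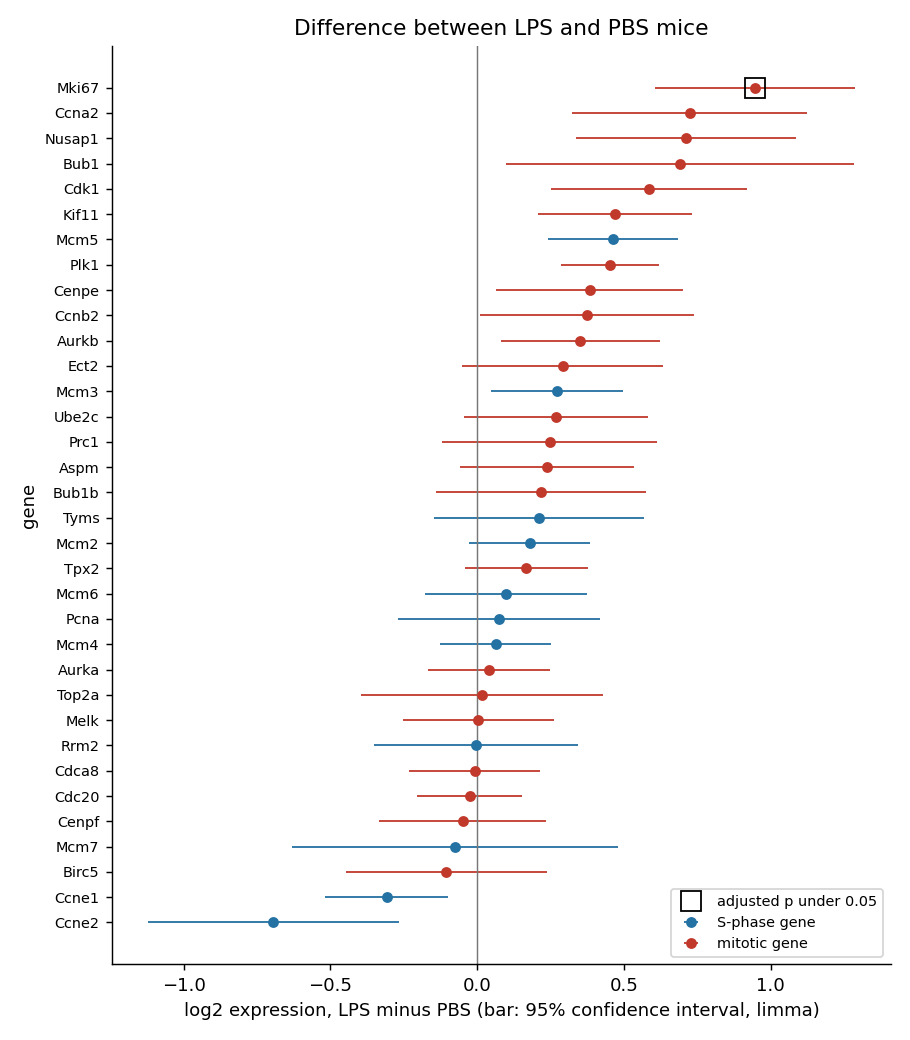
Difference in log2 expression between 3 LPS and 3 PBS mice (horizontal axis) for each of the 34 genes (vertical axis), with the 95% confidence interval from limma as a bar, S-phase genes in blue and mitotic genes in red. Mki67, at 0.95, is the gene with an adjusted p under 0.05, and Ccne2, at -0.70, lies at the other end.

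The phases also stood differently against background. On all 3 PBS arrays, 8 of the 11 S-phase genes were above the receptor percentile, and none of the 23 mitotic genes was. Of the mitotic genes, 21 were below the mark on every PBS array, and 13 were below it on all 6 arrays. On all 3 LPS arrays the same 8 S-phase genes and 2 mitotic genes, Ccnb2 and Kif11, were above it. Most differences of mitotic genes were thus measured between values near background, and no fold is given for them. Under the looser mark of the receptor median, 22 of the 34 genes were above background on all PBS arrays and 26 on all LPS arrays.

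**Figure D3:**
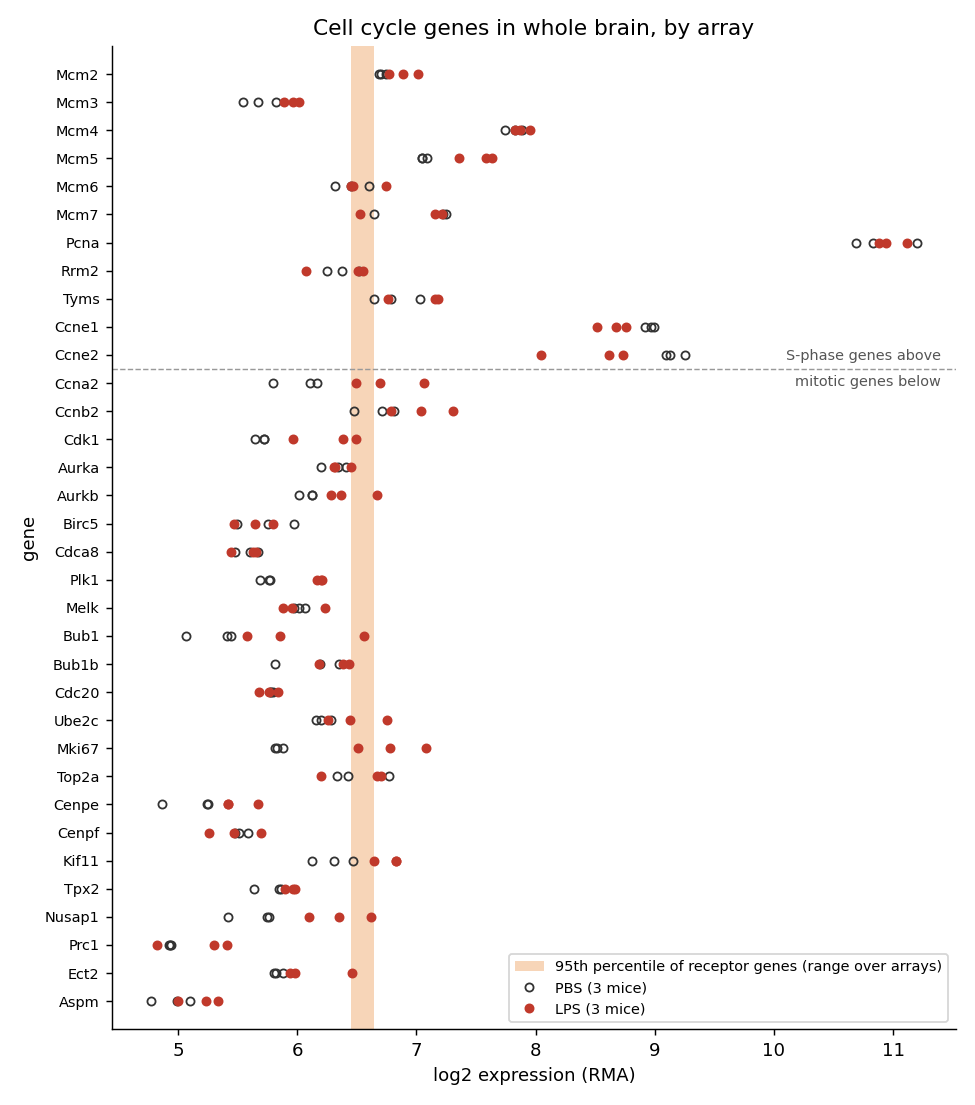
Log2 expression (horizontal axis) of the 34 genes (vertical axis) on each of 3 PBS arrays (open circles) and 3 LPS arrays (red circles), with the shaded band giving the range over arrays, 6.45 to 6.64, of the 95th percentile of receptor genes. Most mitotic genes lie left of the band in both groups, and the Mki67 values of LPS mice, 6.51 to 7.08, reach into it or past it.

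Among the S-phase genes, the first group is the replicative helicase, the ring of Mcm2 to Mcm7 that is loaded on DNA at origins and unwinds it ahead of the polymerases. Of its 6 subunits, none was called, 2 were higher at an unadjusted p under 0.05 and the median difference was 0.14. Mcm5 was 7.05, 7.05 and 7.09 in PBS mice and 7.36, 7.58 and 7.63 in LPS mice, so the groups did not overlap. The difference was 0.46 ± 0.09 (SE, n = 3 a group; 95% interval 0.24 to 0.68), 1.38-fold, with a limma adjusted p of 0.117. Mcm3 also had all LPS values (6.01, 5.96 and 5.89) above all PBS values (5.82, 5.55 and 5.67), but it was under the background mark on every array. Its difference was 0.27 ± 0.09 (SE), with a limma adjusted p of 0.291.

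For the other subunits the difference was smaller. Mcm2 was 6.68, 6.70 and 6.75 after PBS and 6.77, 7.01 and 6.89 after LPS, apart but with an adjusted p of 0.397 by limma. For Mcm4, Mcm6 and Mcm7 the groups overlapped, with differences of 0.06, 0.10 and -0.08. Mcm7 varied most within groups, from 6.65 to 7.25 in PBS mice and from 6.53 to 7.21 in LPS mice, and its 95% interval ran from -0.63 to 0.48. The sign of Mcm4 turned when arrays were centred on their medians (-0.03) or quantile normalized (-0.01).

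Pcna, the sliding clamp that holds polymerases on DNA, was well above background on every array. It was 10.69, 10.83 and 11.20 in PBS mice and 10.88, 10.94 and 11.12 in LPS mice, a difference of 0.07 (95% interval -0.27 to 0.42). A second cluster naming Pcna gave -0.15, with a limma adjusted p of 0.536, so the sign of Pcna depends on the cluster, and centring arrays on their medians turned it too (-0.02). Rrm2, the regulated subunit of ribonucleotide reductase, and Tyms, which makes thymidylate, supply the nucleotides. Rrm2 was 6.52, 6.38 and 6.25 after PBS and 6.07, 6.51 and 6.55 after LPS, and Tyms was 6.65, 7.03 and 6.79 after PBS and 7.18, 6.76 and 7.16 after LPS. Groups overlapped for both, with differences of -0.00 and 0.21 and 95% intervals of -0.35 to 0.35 and -0.15 to 0.57.

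The E-type cyclins, which activate Cdk2 at the entry to S phase, gave the 2 lower values of the set. Ccne2 was 9.10, 9.13 and 9.26 in PBS mice and 8.62, 8.04 and 8.74 in LPS mice, and no LPS array reached the PBS range. The difference was -0.70 ± 0.18 (SE; 95% interval -1.12 to -0.27), 1.62-fold lower, with a limma adjusted p of 0.193. Ccne1 was 8.91, 8.97 and 9.0 in PBS mice and 8.67, 8.52 and 8.76 in LPS mice, again without overlap. Its difference was -0.31 ± 0.09 (SE; 95% interval -0.52 to -0.10), 1.24-fold lower, with a limma adjusted p of 0.229. Both cyclins were far above background on every array, and LPS replicate 2 was the lowest for each. Without LPS replicate 3, limma called both lower, and without any other single array it called neither. Over all clusters, leaving out LPS replicate 3 raised the number called lower from 22 to 1152.

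Among the mitotic genes, cyclins A and B with their kinase Cdk1 form the engine of G2 and mitosis. All 3 measured genes were higher at an unadjusted p under 0.05, and none was called. Ccna2, the cyclin of S phase and G2, was 6.17, 6.11 and 5.80 in PBS mice and 6.69, 6.49 and 7.06 in LPS mice. The log2 difference was 0.72 ± 0.17 (SE; 95% interval 0.32 to 1.12), without overlap and with a limma adjusted p of 0.159, and no PBS array and 2 LPS arrays were above the background mark. Cdk1 was 5.64, 5.72 and 5.72 in PBS mice and 5.96, 6.49 and 6.38 in LPS mice. The groups were apart by 0.59 ± 0.14 (SE; 95% interval 0.25 to 0.92), with a limma adjusted p of 0.171, but no value passed the background mark. Ccnb2, a B-type cyclin, overlapped between PBS (6.71, 6.81 and 6.47) and LPS (6.78, 7.04 and 7.30), with a difference of 0.38 and a limma adjusted p of 0.339.

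Mitotic kinases and the chromosomal passenger complex were divided. Plk1, the polo-like kinase of mitotic entry and spindle assembly, was 5.77, 5.77 and 5.68 in PBS mice and 6.17, 6.21 and 6.20 in LPS mice. The spread within each group was small, and the difference was 0.45 ± 0.07 (SE; 95% interval 0.28 to 0.62). Its limma adjusted p of 0.0536 was just over 0.05, so Plk1 was not called. Every Plk1 value was under the background mark. Aurkb, the kinase of the passenger complex, was 6.02, 6.13 and 6.12 after PBS and 6.28, 6.37 and 6.67 after LPS, a difference of 0.35 without overlap (limma adjusted p = 0.269). Its partners in that complex gave estimates near 0, Birc5 (survivin) at -0.10 and Cdca8 (borealin) at -0.01, with overlapping groups. Aurka, the kinase of spindle poles, at 0.04, and Melk, a kinase named from embryonic cells, at 0.00, overlapped as well, and both turned negative under median centring (-0.05 and -0.09) and quantile normalization (-0.03 and -0.04). None of these 4 genes passed the background mark on any array.

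The spindle checkpoint delays anaphase until chromosomes are attached, and the anaphase-promoting complex then marks cyclin B for destruction. Bub1, a checkpoint kinase, was 5.44, 5.07 and 5.41 in PBS mice and 5.58, 5.85 and 6.56 in LPS mice. The groups did not overlap, but LPS replicate 3 set much of the difference of 0.69 ± 0.25 (SE; 95% interval 0.10 to 1.29; limma adjusted p = 0.301), which was 0.41 without that array. Bub1b, its relative, differed by 0.22 and Ube2c, the ubiquitin-conjugating enzyme of the complex, by 0.27, both with overlap. Cdc20, which activates the complex, was 5.78, 5.77 and 5.80 after PBS and 5.76, 5.68 and 5.83 after LPS, a difference of -0.02 (95% interval -0.20 to 0.15).

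Mki67 encodes Ki-67, a coat protein of mitotic chromosomes that is used as a marker of cycling cells (cluster 10568714, gene at chr7:135689784-135716450). It was 5.83, 5.88 and 5.81 in PBS mice and 6.51, 6.78 and 7.08 in LPS mice. The PBS values lay close together, the LPS values were spread more widely with replicate 3 the highest, and the groups were apart. Mki67 rose by 0.95 ± 0.14 (SE; 95% interval 0.61 to 1.29), with a limma adjusted p of 0.0475. No PBS array and 2 of 3 LPS arrays were above the background mark.

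The call of Mki67 lies close to the threshold. With LPS replicates 1 and 2 both left out, which assumes that the lone LPS array varies like the PBS arrays, the adjusted p was 0.0384, and without LPS replicate 1 or 3 it was 0.0428 or 0.00996. Leaving out LPS replicate 2 gave 0.164, and leaving out PBS replicate 1, 2 or 3 gave 0.198, 0.216 or 0.210 by limma, so that the call was lost. The log2 difference itself stayed between 0.80 and 1.09 when single arrays were left out.

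The other chromosome and kinetochore genes gave estimates on both sides of 0. Cenpe, the kinesin that carries chromosomes to the spindle equator, was 4.86, 5.24 and 5.25 after PBS and 5.42, 5.41 and 5.67 after LPS (difference 0.38; limma adjusted p = 0.291). Every Cenpe value was under the background mark. Cenpf, a large kinetochore protein, differed by -0.05 with overlapping groups. Top2a, the topoisomerase that untangles sister chromatids, was 6.77, 6.42 and 6.33 in PBS mice and 6.67, 6.70 and 6.20 in LPS mice, a difference of 0.02 that turned to -0.08 under median centring and -0.06 under quantile normalization. Its clusters disagreed in size. A dimmer cluster of Top2a alone gave 0.75 (5.44 to 6.19 in the group means; limma adjusted p = 0.157), and clusters that name both Top2a and Hibadh gave 0.47 and 0.58 (adjusted p 0.297 and 0.320).

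Spindle and cytokinesis proteins were all on the positive side, 6 of 6 with a median of 0.27, though none was called. Nusap1, which bundles microtubules near chromosomes, was 5.75, 5.41 and 5.76 in PBS mice and 6.10, 6.35 and 6.62 in LPS mice. It differed by 0.71 ± 0.16 (SE; 95% interval 0.34 to 1.09) without overlap, with a limma adjusted p of 0.143, and 1 LPS array alone was above the background mark. Kif11, the motor that pushes spindle poles apart, was 6.31, 6.13 and 6.47 in PBS mice and 6.83, 6.65 and 6.83 in LPS mice. It differed by 0.47 ± 0.11 (SE; 95% interval 0.21 to 0.73; limma adjusted p = 0.164), and it was the member that lay under the background mark on all PBS arrays and over it on all LPS arrays. Tpx2, a spindle assembly factor, and Ect2, which starts the cleavage furrow, were also apart in every array, by 0.17 and 0.29, with limma adjusted p of 0.426 and 0.403. Prc1, of the central spindle, and Aspm, of the spindle poles, differed by 0.25 and 0.24 with overlap.

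**Figure D4:**
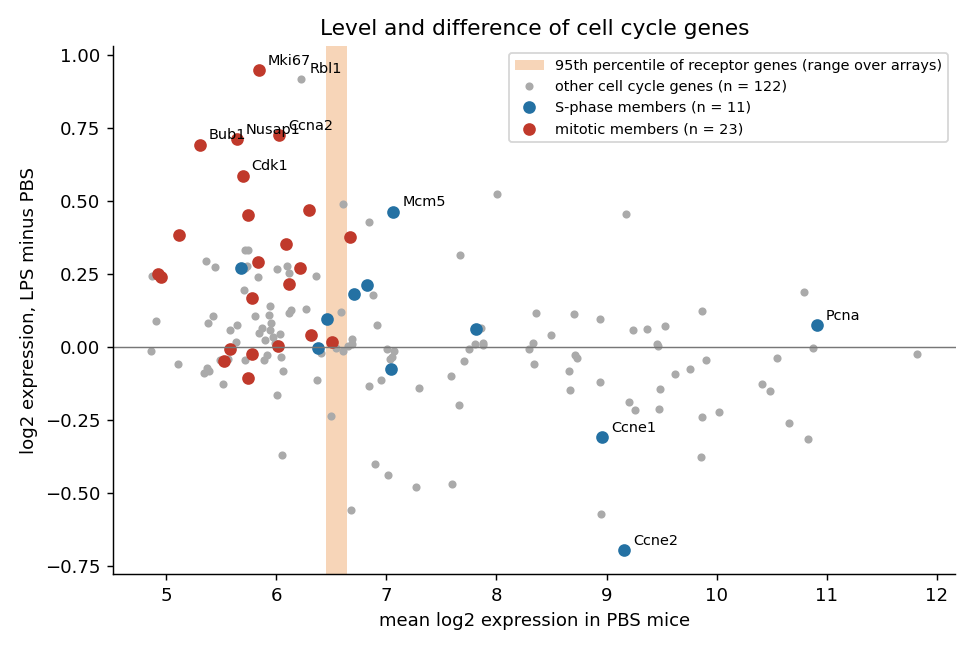
Mean log2 expression in PBS mice (horizontal axis) and log2 difference of LPS minus PBS (vertical axis) for 11 S-phase members (blue), 23 mitotic members (red) and 122 other cell cycle genes (grey), with the band of the background mark. The largest positive differences of members, from 0.59 for Cdk1 to 0.95 for Mki67, lie left of the band, and Ccne1 and Ccne2 lie far to its right.

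Array by array, the deposited values of the mitotic genes had a higher median in each LPS mouse than in the PBS mice, but by unequal amounts. The median of the 23 genes, taken relative to the mean of the PBS arrays, was 0.18 in LPS replicate 1, 0.30 in replicate 2 and 0.48 in replicate 3, beside -0.01 to 0.03 in the PBS arrays. For the 11 S-phase genes the medians were 0.00, 0.05 and 0.18. The arrays also differed as a whole. The median of all clusters was 7.09 and 7.11 on LPS replicates 1 and 2, 6.96 on LPS replicate 3 and 6.95 to 6.98 on the PBS arrays. The medians of the gene lists by array were not centred for this, so how much of each shift is particular to the mitotic genes was not tested. The 2 arrays that scored high on principal component 1 thus had the smaller shifts of mitotic genes, and leaving both out raised the mitotic median to 0.48. The E-type cyclins ran otherwise, at -0.41, -0.78 and -0.31 in LPS replicates 1, 2 and 3.

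**Figure D5:**
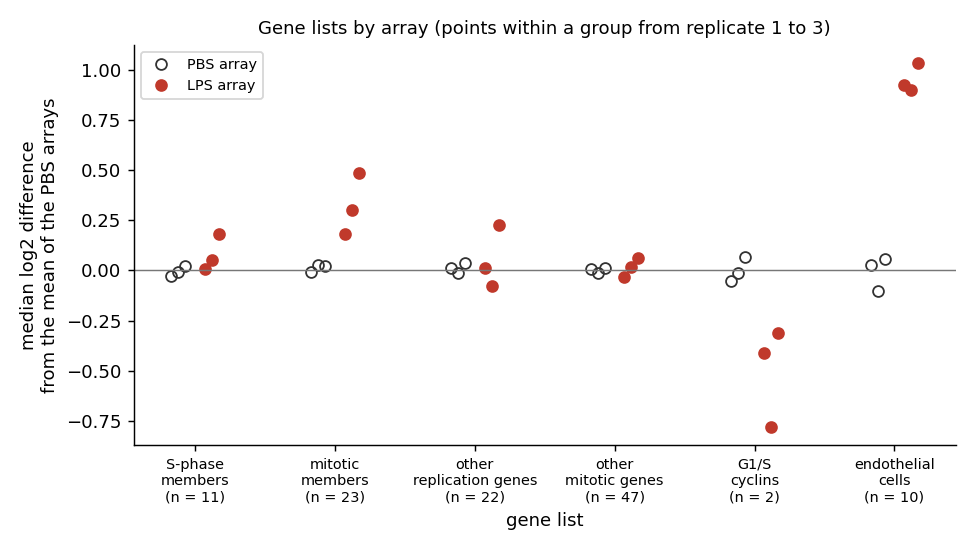
Median log2 difference from the mean of the PBS arrays (vertical axis) of 6 gene lists (horizontal axis) on each PBS array (open) and LPS array (red), replicates 1 to 3 from left to right within a group. Mitotic members lie at 0.18 to 0.48 in LPS mice, the other mitotic genes at -0.03 to 0.06 and endothelial markers at 0.90 to 1.03.

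The cell cycle was also read through a longer list. Of 127 further genes listed by function, 122 were measured. Of these, 1 was called higher and none lower, against 0.652% and 0.0619% of all clusters. At an unadjusted p under 0.05, 15 were higher (12.3%) and 8 lower, against 7.69% and 6.58% of all clusters, and the median was -0.00. Of 47 other mitotic genes, none was called by limma or by the methods' t-test, rerun here on the deposited values. At an unadjusted limma p under 0.05, 4 were higher (8.51%, near the 7.69% of all clusters) and 1 was lower, with a median of 0.01. Among the higher ones were the spindle motors Kif15 (0.33) and Kif23 (0.28) and the condensin gene Smc4 (0.31). The lower one was Anln, the actin-binding anillin, at -0.38 (adjusted p = 0.21). The transcription factors of the mitotic program did not pass the test either, Foxm1 being at 0.13 (limma adjusted p = 0.588) and Mybl2, which encodes B-Myb, at -0.23 (0.431).

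The gene called higher was Rbl1, which encodes p107, a retinoblastoma relative that binds E2F factors and holds their targets silent. Rbl1 was 6.10, 6.39 and 6.19 in PBS mice and 7.11, 7.25 and 7.06 in LPS mice, with a wide gap between the groups. It rose by 0.92 ± 0.10 (SE), with a limma adjusted p of 0.0152. The call was lost without LPS replicate 1 (0.0747), LPS replicate 2 (0.0651), PBS replicate 1 (0.0849) or PBS replicate 3 (0.0990), with LPS replicates 1 and 2 both left out (0.163), with the replicate block (0.0517) and by the methods' t-test (0.132). Of the 13 genes of the Rb and E2F families, 2 were higher and 1 lower at an unadjusted p under 0.05. Besides Rbl1 the higher one was E2f8, a repressor of the family, at 0.28 (limma adjusted p = 0.303), and the lower one was E2f1, an activator of S-phase genes, at -0.47 (0.125). Genes other than the members that are named, above or below, only for an unadjusted p under 0.05 were chosen after their values were seen. Every count at that threshold from limma on all 6 arrays as deposited, here and below, stands beside 7.69% of all clusters higher and 6.58% lower.

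In G1, the D-type cyclins and their kinases gave 3 genes higher and 1 lower of 8 at an unadjusted p under 0.05, and none was called. Ccnd1, which encodes cyclin D1, was 9.09, 9.27 and 9.17 after PBS and 9.61, 9.56 and 9.71 after LPS, apart by 0.45 (limma adjusted p = 0.0987). The kinases Cdk6, a partner of cyclin D, and Cdk2 were at 0.49 and 0.25 (limma adjusted p 0.125 and 0.313), while Cdk4, the other partner of cyclin D, was the lower one at -0.26 (0.239). Ccnd2, a relative of Ccnd1, was at -0.21 (limma adjusted p = 0.465). Of 6 measured inhibitors of the kinases, 1 was lower at an unadjusted p under 0.05, Cdkn2d at -0.57 (limma adjusted p = 0.32), while Cdkn1b was at 0.01 and Cdkn1c at -0.14. Cdkn1a has no cluster of its own and was not analysed here. Of 8 genes of the p53 response, 1 was higher and 3 lower at that threshold, with a median of -0.21, and the smallest p was that of Btg2, an antiproliferative gene, at 0.52 (limma adjusted p = 0.0962). The 3 lower genes were Gadd45a and Gadd45g, of the damage response, at -0.56 and -0.40, and Sesn1 at -0.31 (limma adjusted p 0.229, 0.283 and 0.187).

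Genes of replication other than the members also stayed short of the threshold. Of 18 genes of origin licensing and firing, 1 was higher at an unadjusted p under 0.05, the kinase Cdc7 at 0.24 (limma adjusted p = 0.303). Of 22 other replication genes, 4 were higher and 1 lower. The smallest p was that of Pola1, the catalytic subunit of the polymerase that starts new strands, at 0.43 (limma adjusted p = 0.0826). Pole, of the leading-strand polymerase, Chaf1a, of chromatin assembly, and Uhrf1, of maintenance methylation, were at 0.27, 0.27 and 0.33, and Rpa2, of the protein that coats single strands, was the lower one at -0.48 (limma adjusted p 0.269, 0.301, 0.291 and 0.161).

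Markers of cells that can divide in brain were read beside the members, and their part in the result was not tested. For neural stem and progenitor cells none of 7 markers was called, and at an unadjusted p under 0.05 the lower one was Eomes, of intermediate progenitors, at -0.78 (limma adjusted p = 0.132). Their summed level on the log2 scale was 11.16 to 11.35 in PBS mice and 11.09 to 11.55 in LPS mice. For neuroblasts none of 8 was called, 3 were lower at an unadjusted p under 0.05, among them Sox4 at -0.27, and the sums were 10.89 to 10.98 and 10.79 to 10.86. For oligodendrocyte progenitors none of 8 was called, 2 were lower at that threshold, among them Olig1 at -0.24, and the sums were 11.75 to 11.86 and 11.64 to 11.72.

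Endothelial markers, too, are shown beside the mitotic genes. All 10 were positive with a median of 0.96, and 8 rose, against 0.652% of all clusters called higher. Among the 8 were Emcn, of capillaries and veins, by 1.08 (limma adjusted p = 0.00448), and the tight junction gene Cldn5 by 0.98 (0.00456). The angiopoietin receptor gene Tek rose by 1.04 (limma adjusted p = 0.00465) and the cadherin gene Cdh5 by 0.85 (0.00492). The count of 8 fell to 5 without LPS replicate 1 or PBS replicate 3, to 4 without PBS replicate 1 or 2, to 3 with the replicate block, to 1 without LPS replicates 1 and 2 together and to 0 by the methods' t-test, while all 10 markers kept an unadjusted p under 0.05 in each of these settings. Their summed level was 11.37 to 11.67 in PBS mice and 12.41 to 12.52 in LPS mice, and 9 of 10 were above the background mark on all 6 arrays, the exception being Kdr, below it on every PBS array and named after its value was seen. Of 11 microglial markers, 1 rose, against the same 0.652% of all clusters. It was Itgam, which encodes CD11b, by 1.77 (limma adjusted p = 0.00317, but 0.0817 by the methods' t-test). At an unadjusted limma p under 0.05, 4 microglial markers were higher. The microglial sums were 11.44 to 11.61 and 11.71 to 12.03. Among the LPS arrays, replicate 3 had the highest summed level of the microglial list (12.03) and the lowest of the endothelial list (12.41). By the median difference from the mean of the PBS arrays, replicate 3 was the highest for both lists, at 0.38 and 1.03. The endothelial medians of replicates 1 and 2 were 0.92 and 0.90, so the rank of replicate 3 depends on the measure. The part of either cell type in the mitotic values was not tested.

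Markers of blood cells lay near background. Of 10 T and NK cell markers and 9 neutrophil markers none was called by limma, at an unadjusted p under 0.05 2 of the former (Gzma and Cd3e) and 1 of the latter (Cxcr2) were higher, and 9 of each were under the background mark on every array, with sums of 9.02 to 9.18 in PBS mice and 9.16 to 9.21 in LPS mice for the first list and of 8.77 to 8.99 and 8.87 to 8.92 for the second. The smallest p of the lymphoid list was that of the granzyme gene Gzma, at 0.57 (limma adjusted p = 0.0768). The 4 measured erythroid markers, of 8 listed, were under the mark on all arrays, and none was called, with Alas2 lower at an unadjusted p under 0.05.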

How the data were processed

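Total RNA of whole brain from 3 LPS and 3 PBS mice was hybridised to Affymetrix gene arrays, 1 mouse an array. The authors deposited log2 values, normalised with robust multichip average (RMA). Their methods name an RMA adjusted for GC content and a second variant, and the sources used here do not say which one gave the deposited values. The methods state that brains were perfused. Depth does not apply to arrays, and their number limits the precision: an exact permutation test of 3 against 3 cannot go below a two-sided p of 0.1, so limma was used, which shares the spread across clusters.

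Groups and replicate numbers came from the sample labels. Clusters were named from the platform annotation, updated to RefSeq symbols (GRCm38.p6), and a gene was measured by the brightest of the clusters (highest mean of 6 arrays) that name it alone. All 35556 clusters were fitted with limma 3.58.1 in R 4.3.3 (lmFit and eBayes, two-sided, no covariate), with Benjamini-Hochberg adjustment over all of them. The fit was tested on simulated data. All members are named. Of each other list, the genes that passed are named (the 4 with the smallest p where more passed), or else the one with the smallest p, and Ccnd1, Ccnd2, Cdkn1b, Cdkn1c, Foxm1 and Mybl2 in any case. Any further gene of these lists that is named with a value was chosen after its value was seen. The members and lists were chosen with earlier results of these data known. Same-numbered arrays of the 2 groups had deviations that correlated at 0.09, -0.05 and 0.10, so numbers were not taken as pairs. Alternatives were 3 other scalings, 2 other tests, a filter on dim clusters, a replicate block, another threshold, averaged clusters for each gene, and arrays left out. Counts at an unadjusted p were added after seeing the data. Levels were set against receptor genes, and promoter motifs were counted by exact match.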

Additional observations from a re-analysis of the deposited data

How the results depend on the processing

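No member was called higher with arrays centred on their medians, centred on receptor genes or quantile normalized, by the methods' t-test, or without the dimmest 40% of clusters, a filter that removes Mki67 itself. The methods' t-test, rerun on the deposited values, had 9 members higher and 2 lower at an unadjusted p under 0.05. At that threshold it had 2100 of 35556 clusters higher and 2114 lower. Over all clusters it called 4 higher and 1 lower. At an adjusted p under 0.1, 2 members were called higher, and the share of all clusters called at that threshold was not counted. The replicate numbers do not pair the arrays. With the replicate block 0 members were called higher, the adjusted p of Mki67 being 0.118 by limma, and 12 members were higher at an unadjusted p under 0.05, as without the block. Over all clusters the block left 76 calls higher and 4 lower, against 232 and 22. At an unadjusted p under 0.05 the block gave 2909 of 35556 clusters higher and 2052 lower. Leaving out single arrays gave 0 to 5 members called higher and 0 to 2 called lower. The 5 and the 2 came without LPS replicate 3, when Mcm5, Ccna2, Plk1 and Nusap1 joined Mki67 and Ccne1 and Ccne2 were called lower. In that setting calls rose over all clusters, to 2640 higher and 1152 lower against 232 and 22, so the rise was not particular to the members. The 0 came without LPS replicate 2 or without PBS replicate 1, 2 or 3. The adjusted p of Mki67 was between 0.00996 and 0.236 over all alternatives in which it was tested.

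The count of members higher at an unadjusted p under 0.05 was 7 after median centring, which moved the median of all clusters by -0.09. It was 3 of the 12 members tested without the dimmest 40%. Over all clusters, 1718 of 35556 were higher after median centring and 1863 of 21333 without the dimmest 40%. The count of lower members was 1 without LPS replicates 1 and 2. The S-phase median of 0.07 became 0.18 without these 2 arrays and -0.017 after median centring, and was 0.0043 to 0.14 with single arrays left out. The mitotic median of 0.27 became 0.48 without both arrays and was 0.24 to 0.38 with single arrays left out. Its lowest value, 0.18, came with median centring. With the receptor median as the background mark, 22 members were above it on all PBS arrays and 26 on all LPS arrays.

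Signs turned only for uncalled members. Without LPS replicates 1 and 2 the log2 differences were 0.17 for Mcm7, Rrm2 and Cenpf, -0.0036 for Aurka, 0.072 for Cdca8, -0.14 for Melk, 0.051 for Cdc20 and -0.31 for Top2a. Median centring gave -0.028 for Mcm4, -0.017 for Pcna, -0.051 for Aurka, -0.087 for Melk and -0.075 for Top2a. Quantile normalization gave -0.0058 for Mcm4, -0.032 for Aurka, -0.038 for Melk and -0.062 for Top2a, and the mean of clusters gave -0.039 for Pcna. With single arrays left out, the ranges were -0.27 to 0.14 for Mcm7, -0.036 to 0.22 for Pcna, -0.090 to 0.15 for Rrm2, -0.017 to 0.084 for Aurka, -0.23 to 0.011 for Birc5, -0.061 to 0.059 for Cdca8, -0.10 to 0.077 for Melk, -0.063 to 0.016 for Cdc20, -0.072 to 0.18 for Top2a and -0.16 to 0.058 for Cenpf. The cause of these shifts was not tested. Signal near background limits what the arrays can show for most mitotic genes.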
